A study of Caenorhabditis elegans with 12 samples.

Results

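The comparison of bcat-1 RNAi with the empty vector at day 2 rests on 6 of the 12 libraries of the series, 3 from each food. All of them come from whole N2 hermaphrodites of Caenorhabditis elegans, the standard wild-type strain, and the labels name no other mutation or agent for either group. The control worms fed on bacteria with the vector L4440, which holds no worm gene, and the others on bacteria that make double-stranded RNA of bcat-1. The labels give an age of 2 days for both groups and say neither from which stage days were counted, nor how many worms were pooled, nor whether libraries are separate cultures. The p-values therefore measure the spread between these libraries, which may be technical.

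bcat-1 encodes the branched-chain amino acid aminotransferase, the enzyme that removes the amino group of leucine, isoleucine and valine as their breakdown begins. The ketoacid dehydrogenase and a series of acyl-CoA enzymes then carry the carbon on, and valine and isoleucine end in propionyl-CoA. Propionyl-CoA is broken down by a vitamin B12-dependent route or, in worms short of B12, by a set of enzymes called the propionate shunt.

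The 3 libraries of each food were compared within pairs taken from the order of the columns: libraries 7 and 8 (pair 1), 9 and 10 (pair 2), and 11 and 12 (pair 3), L4440 first. No label states this pairing, so it is an assumption. Reads of 22 ribosomal RNA (rRNA) genes were left out beforehand, since they took 41.46% of counts in the bcat-1 library of pair 3 and 6.742% in its L4440 partner, against 0.07699% to 0.2225% in the other 4. After this step the day 2 libraries held 17258721 to 41403331 counts, with the smallest number in the bcat-1 library of pair 3. Markers of the tissues of a whole worm were present: none of the 19 intestine, 28 body-wall muscle or 24 neuron genes was at 0 in all 6 libraries. The summed level of the muscle genes was lower under bcat-1 RNAi in every pair (6463 and 5722, 5293 and 4913, and 5930 and 5510 CPM, L4440 first). Those of the pharynx, epidermis, germline and oocyte lists were too, some by very little (pharynx 132.8 and 131.6 CPM in pair 2, germline 7863 and 7858 in pair 1). The embryo sum was higher in every pair (587.5 and 604.6, 624.6 and 644.7, and 604.7 and 620.5 CPM). CPM are counts relative to the scaled library size. In bulk RNA, fewer cells of a type and less RNA per cell cannot be told apart.

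The RNAi target checks the labels. The bcat-1 transcript (chromosome X, 12877480 to 12880328 in WBcel235) stood at 148.1, 166.1 and 126.7 CPM on L4440 in pairs 1, 2 and 3. On bcat-1 RNAi it stood at 14.84, 18.45 and 378.3 CPM. It was low in the bcat-1 libraries of pairs 1 and 2, whereas the library labelled bcat-1 in pair 3 had more than any L4440 library, so the groups overlapped. The fitted log2 fold change was -1.90 (SE 1.1, adjusted p = 0.608 by edgeR's quasi-likelihood test), and it did not pass. Without the pairing the value was -0.11. Without the library labelled bcat-1 in pair 3 it was -3.24 (SE 0.06, adjusted p = 1.03e-12). Double-stranded RNA taken up with the food can give reads at this gene as well, and its share was not tested. Each comparison below was therefore also made without that library.

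**Figure D1:**
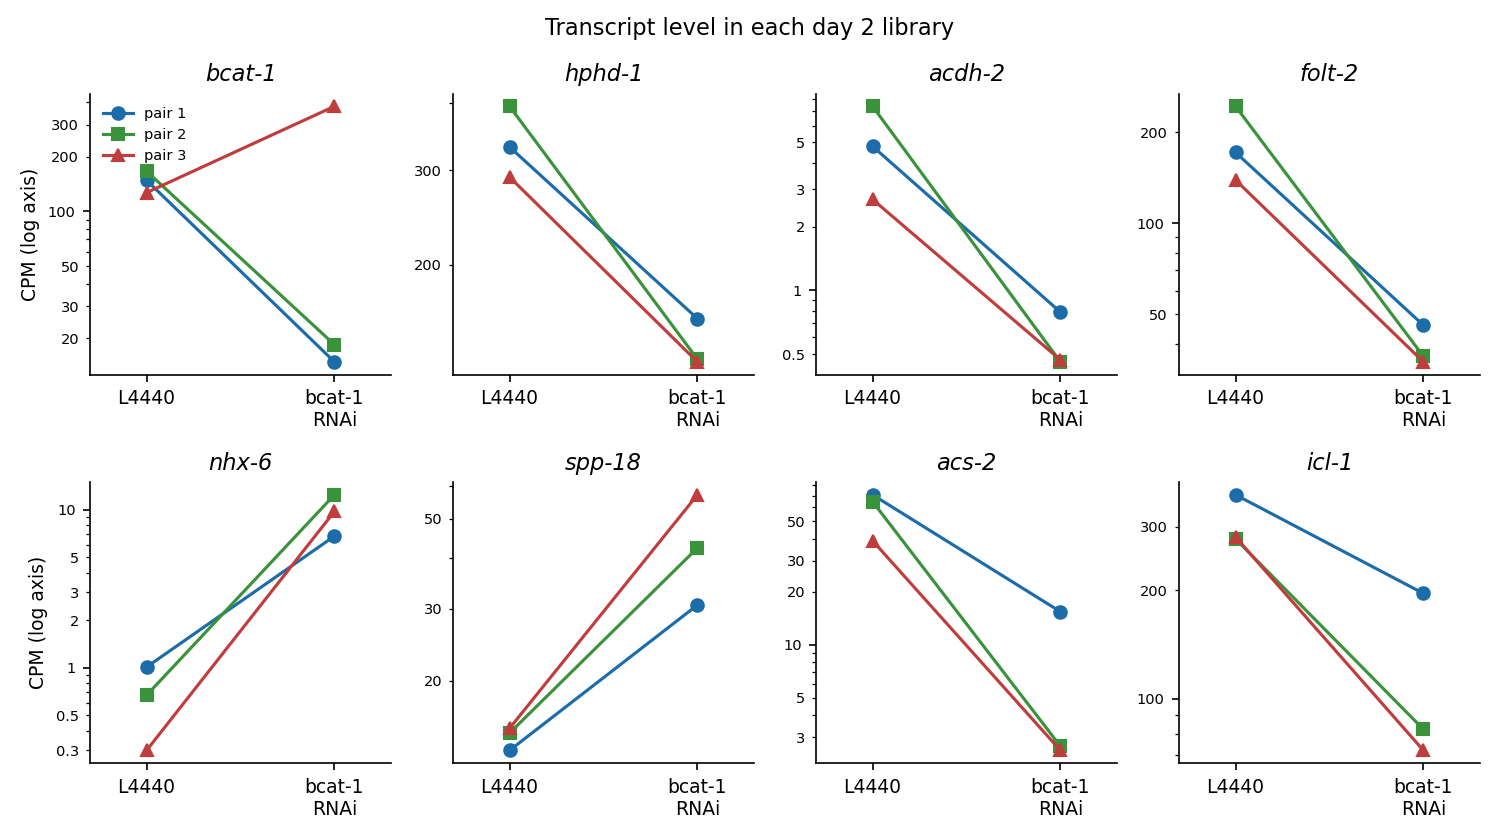
Level of 8 transcripts in CPM on a log axis in each day 2 library, with 1 panel per gene and a line joining the L4440 and bcat-1 RNAi library of a pair. The lines of a panel run the same way in all 3 pairs except for bcat-1, where pair 3 rises from 126.7 to 378.3 CPM.

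Over the 6 libraries, 16 of 14271 genes (0.112%) passed the edgeR test, 5 higher (0.035%) and 11 lower (0.0771%) on bcat-1 RNAi, each at least 2-fold. They included enzymes of propionate breakdown, a folate transporter family gene, a D-amino acid oxidase and ion pumps and exchangers. In each of the 16 all 3 pairs moved the same way and the groups did not overlap, as was so of 11.1% of all genes tested (7.16% with bcat-1 RNAi higher and 3.89% with it lower). Pair 3 took part in that fit, so its sign in these genes is no separate evidence. All 16 had an adjusted p of 0.0455, just inside the threshold of 0.05. All 16 stayed past it with each of the 6 libraries left out in turn and with all 12 libraries in a fit blocked by pair, and 0 of the 16 did in the 6 libraries without the block, with rRNA genes kept, with scaling by library size only, with limma-voom or with a stricter filter on low counts. The total moved with each library left out, to 326 or 328 genes without the L4440 or bcat-1 library of pair 1, 219 or 158 without those of pair 2, and 554 or 543 without those of pair 3. Under the block, leaving out 1 library also removes what its partner tells of the RNAi effect. These 6 fits thus come to 1 check per pair, each resting on 2 pairs. All of them called more genes than the fit of the 6 libraries, so the passing of the 16 there is no independent evidence.

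**Figure D2:**
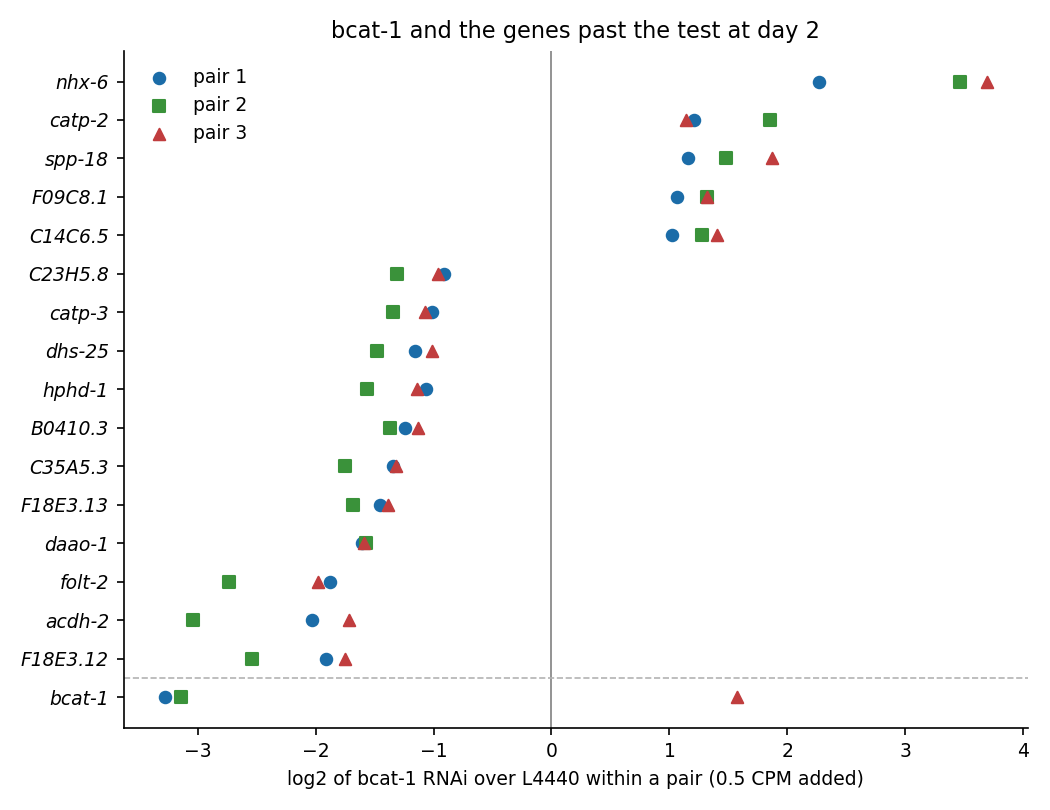
Log2 of bcat-1 RNAi over L4440 within each pair, with 0.5 CPM added, for bcat-1 (below the dashed line) and the 16 genes past the test at day 2; each symbol is 1 pair. The 3 symbols of each of the 16 genes lie on 1 side of 0, while bcat-1 has pair 3 at 1.57.

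The gene lists and their members were chosen with earlier results of these data known, so their ranking is no separate evidence. Among the 52 lists examined, the propionate shunt had the lowest median. All 6 of its members lay lower on bcat-1 RNAi (median log2 -0.78, against 0.01 over all genes tested, of which 6758 of 14271 lay lower), and in each the groups did not overlap; 2 of the 6 passed. hphd-1 (chromosome II, 12994354 to 12996571), the shunt's hydroxyacid-oxoacid transhydrogenase, stood at 331.7, 394.9 and 291.5 CPM in the controls and at 158.9, 133.5 and 132.0 CPM under bcat-1 RNAi in pairs 1 to 3. Every bcat-1 library lay well below every control, and the gene fell 2.39-fold (log2 -1.26, SE 0.13). acdh-2 (chromosome II, 5544778 to 5547492), an acyl-CoA dehydrogenase close to the shunt's first enzyme, stood at 4.79, 7.4 and 2.69 CPM in the controls and at 0.79, 0.46 and 0.47 CPM under bcat-1 RNAi. Its control libraries spread widely, yet all lay above the bcat-1 libraries, and it fell 8.71-fold (log2 -3.12, SE 0.33).

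The other shunt genes had smaller differences. acdh-1, the first enzyme of the shunt, stood at 855.9, 943.1 and 731.7 CPM in the controls and at 511.0, 482.6 and 512.1 CPM under bcat-1 RNAi (log2 -0.74, SE 0.12, adjusted p = 0.167 by edgeR). hach-1, a hydrolase that valine breakdown also uses, had a log2 value of -0.81 (SE 0.10, adjusted p = 0.0765 by edgeR), from a mean of 223.2 ± 30.8 to 126.6 ± 9.34 CPM (SD, n = 3). The enoyl-CoA hydratase gene ech-6 had -0.44 (adjusted p = 0.373) and alh-8, the last enzyme of the shunt, -0.23 (adjusted p = 0.608). The size thus ran from acdh-2 to alh-8, and alh-8 differed by the least (631.7, 712.7 and 591.2 CPM against 538.2, 553.1 and 553.8). Without the bcat-1 library of pair 3 all 6 passed, from -3.27 for acdh-2 (adjusted p = 7.83e-06 by edgeR) to -0.30 for alh-8 (adjusted p = 0.00487). With the day 1 libraries added, 5 of the 6 passed, with alh-8 at an adjusted p of 0.132 by edgeR. In pair 3 taken alone all 6 were negative as well.

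No gene of the B12-dependent route passed the test. The list of 11 genes holds the propionyl-CoA carboxylase and methylmalonyl-CoA mutase genes, but also nhr-10 and nhr-68, nuclear receptors that activate the shunt, and nhr-114, a receptor of the methionine cycle. It had a median log2 of -0.03, with 6 negative and 0 past the edgeR test with or without the bcat-1 library of pair 3. That median turned to 0.01 under library size only.

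The other genes that fell included a transporter and enzymes outside the shunt. folt-2 (chromosome V, 2872465 to 2875600), of the folate transporter family, stood at 171.5, 243.5 and 139.0 CPM in the controls and at 46.08, 36.39 and 34.87 CPM under bcat-1 RNAi. The bcat-1 libraries lay close together while the controls spread, and the gene fell 4.63-fold (log2 -2.21, SE 0.18). Of the 12 tested genes of the folate list it was the 1 that passed, and the list's median was -0.01 (0.03 under library size only). daao-1 (chromosome IV, 2614194 to 2617147), a D-amino acid oxidase, stood at 5.47, 4.23 and 4.91 CPM in the controls and at 1.45, 1.09 and 1.29 CPM under bcat-1 RNAi (log2 -1.93, SE 0.17). dhs-25 (chromosome X, 1486532 to 1489326), a short-chain dehydrogenase, stood at 28.02, 36.59 and 24.53 CPM in the controls and at 12.27, 12.82 and 11.92 CPM under bcat-1 RNAi (log2 -1.25, SE 0.13).

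The list of 17 cation ATPase and sodium-proton exchanger genes, which move ions across membranes, held 3 of the 16 genes. Over all genes tested 0.112% passed, but this list too was chosen with earlier results of these data known. The 3 genes went in different directions. nhx-6 (chromosome II, 1670829 to 1674401), a sodium-proton exchanger, stood at 1.01, 0.67 and 0.30 CPM in the controls and at 6.80, 12.41 and 9.74 CPM under bcat-1 RNAi. It was low in all controls and rose 13.6-fold (log2 3.76, SE 0.38). catp-3 (chromosome V, 8076012 to 8079916), a cation-transporting ATPase, went the other way, from 67.89, 48.12 and 46.18 CPM to 33.57, 18.69 and 21.66 CPM (log2 -1.16, SE 0.11). Its relative catp-2 rose from 0.09, 0.10 and 0.07 CPM to 0.87, 1.64 and 0.76 CPM, and the control levels are so low that no fold is given. The list as a whole had a median of -0.04, with 10 of 17 negative.

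The other rises were spp-18, C14C6.5 and F09C8.1. spp-18 (chromosome IV, 9593712 to 9594413), of the saposin-like family, stood at 13.48, 14.87 and 15.27 CPM in the controls and at 30.68, 42.37 and 57.23 CPM under bcat-1 RNAi (2.89-fold, log2 1.53, SE 0.15). Its controls were nearly equal, and its highest level was in the library with the most rRNA. C14C6.5 (chromosome V, 536628 to 537418) went from 25.65, 27.33 and 26.22 CPM to 52.40, 67.06 and 69.85 CPM (2.37-fold). F09C8.1 (chromosome X, 16159648 to 16163524) went from 11.95, 11.92 and 12.69 CPM to 25.55, 30.49 and 32.52 CPM (2.41-fold).

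The remaining genes that fell have no gene name beyond their sequence name. C23H5.8 (chromosome IV, 2111890 to 2113412) stood at a mean of 162.3 ± 16.39 CPM in the controls and 77.51 ± 9.855 CPM under bcat-1 RNAi (SD, n = 3; log2 -1.07). C35A5.3 fell by 1.56 on the log2 scale and B0410.3 by 1.37. B0410.3 overlaps vang-1 on the other strand, so without strand information reads of both cannot be told apart. F18E3.12 and F18E3.13 fell by 3.15 and 1.89, and F18E3.11 beside them had -1.91 (adjusted p = 0.0807 by edgeR). These 3 genes lie within chromosome V 7413482 to 7416433 and are alike in length, and whether they share reads was not tested.

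Without the library labelled bcat-1 in pair 3, its L4440 partner tells nothing of the RNAi effect, and the fit rests on pairs 1 and 2. There 543 of 14614 genes (3.72%) passed the edgeR test, 258 higher (1.77%) and 285 lower (1.95%), 120 of them at least 2-fold. All 16 genes above were among them. The number rests on 1 residual degree of freedom per gene and on spread shared across genes (common dispersion 0.00183, against 0.0175 with all 6 libraries). With the 6 day 1 libraries also in the blocked fit, 96 of 14921 genes passed (0.643%), 36 higher (0.241%) and 60 lower (0.402%). All 96 were among the 543. That fit of 11 libraries again takes the day 2 effect from pairs 1 and 2. Its spread comes from those pairs and the assumed pairs of day 1, since library 11 has no partner. With all 12 libraries the blocked fit has 4 residual degrees of freedom, and with 11 it has fewer. Without the block 1 gene passed. Of 78 genes named from pairs 1 and 2, 50 lost the call with 11 libraries. That fit is given below beside the lists and genes, and "rose" and "fell" below refer to the fit of pairs 1 and 2. The 16 genes all passed with 11 libraries.

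Pair 3 took no part in choosing these genes, so it shows how far they carry over. Of the 257 genes called higher in pairs 1 and 2 that could be read in pair 3, 244 (94.9%) were higher there too, against 66% of all genes that were higher in pairs 1 and 2. Of the 283 called lower, 195 (68.9%) were lower in pair 3, against 55.4% of all lower genes. The median log2 value of the genes called higher was 0.53 in pairs 1 and 2 and 0.84 in pair 3, and that of the genes called lower was -0.60 and -0.25. Whether the shares of the genes called higher and lower differ was not tested. Over all genes pair 3 had a median of 0.06.

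**Figure D3:**
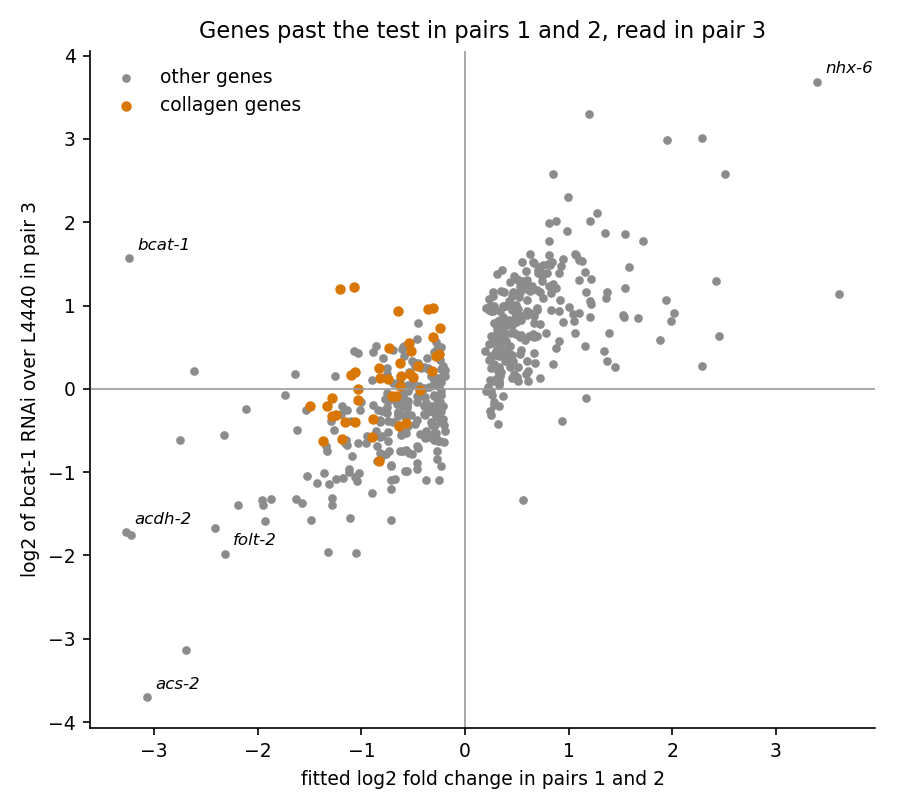
Each point is 1 of 540 genes past the test in pairs 1 and 2, with its fitted log2 fold change there on the x axis and its log2 difference in pair 3 on the y axis; collagen genes are in orange. Genes to the right lie mostly above 0, while the collagens, all to the left, lie on both sides of 0 in pair 3, and bcat-1 lies high on the left.

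Collagen genes fell in pairs 1 and 2 and not in pair 3. They build the cuticle and are made in waves tied to moults. In pairs 1 and 2, 43 collagen genes fell (38.4% of those tested, against 1.95% of all genes) and 0 rose (median log2 -0.56). With 11 libraries 15 collagens fell (11.8%, against 0.402% of all genes). In pair 3, 18 of those 43 were lower (41.9%), with a median of 0.13, and over the 6 libraries 0 of 109 passed. col-93 shows it, at 42.25, 44.72 and 44.52 CPM in the controls and at 22.22, 19.37 and 104.2 CPM under bcat-1 RNAi. col-119 stood at 346.6, 357.1 and 402.9 CPM in the controls and at 234.4, 209.5 and 379.0 CPM under bcat-1 RNAi. Summed over 176 collagen genes, the levels were 6145, 5874 and 6531 CPM in the controls and 4772, 3976 and 7942 CPM under bcat-1 RNAi. The 39 moulting genes had 0 called members, and their summed levels differed by pair, at 1129 and 1065 CPM in pair 1, 461.6 and 482.4 in pair 2, and 788.3 and 596.1 in pair 3 (L4440, then bcat-1). Without collagens 177 of 240 genes called lower (73.8%) were also lower in pair 3.

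Muscle genes changed by less. Of 28 body-wall muscle markers 8 fell in pairs 1 and 2 (28.6%, against 1.95% of all genes) and 0 rose (median -0.15), 5 of the 8 were lower in pair 3, and with 11 libraries 0 passed. The thick filament myosin gene myo-3 had -0.28 in pairs 1 and 2 (adjusted p = 0.0108 by edgeR) and -0.59 in pair 3, and the troponin T gene mup-2 had -0.39 (adjusted p = 0.000542) and -0.10. With 11 libraries their adjusted p by edgeR was 0.353 and 0.0648. Over the 6 libraries 0 of the 28 passed the edgeR test, and 24 were negative (median -0.12). The level of myo-3 differed more between pairs than between foods. It stood at 100.6 and 81.05 CPM in pair 1, 35.43 and 30.08 in pair 2, and 67.86 and 44.90 in pair 3.

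Branched-chain amino acid breakdown downstream of BCAT-1 lay lower in all pairs. Of 21 tested genes 18 were negative over the 6 libraries (median -0.23) and 0 passed, and in pairs 1 and 2, 11 fell and 1 rose, which is 52.4% lower against 1.95% of all genes. Each of these 12 had the same sign in pair 3. With 11 libraries 2 of them passed, both lower (9.52%, against 0.402% of all genes). These 2 were hach-1 and ech-6, which belong to the shunt too, so no gene outside the shunt passed there. alh-8, also of the 12 and of the shunt, did not pass (adjusted p = 0.132 by edgeR). The thiolase gene acaa-2 had -0.30 (adjusted p = 0.00257 by edgeR, but 0.2 with 11 libraries), at 252.7, 258.7 and 256.3 CPM in the controls and at 212.2, 203.0 and 168.2 CPM under bcat-1 RNAi. ech-7, of the enoyl-CoA hydratase family, was the exception, with 0.43 (adjusted p = 0.00258, but 0.216 with 11 libraries), from 30.41, 28.48 and 25.74 CPM to 38.27, 41.47 and 63.16 CPM.

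Among the lists of fatty acid oxidation and of the TCA and glyoxylate cycles, acs-2 and icl-1 had the lowest values. acs-2 (chromosome V, 15567394 to 15569897), which activates fatty acids for their oxidation, stood at 70.78, 64.78 and 38.87 CPM in the controls and at 15.39, 2.66 and 2.52 CPM under bcat-1 RNAi. Every bcat-1 library lay below every control, but pair 1 changed least, and the log2 value of -3.48 (SE 0.46) did not pass over the 6 libraries (adjusted p = 0.0921 by edgeR). Without the bcat-1 library of pair 3 it fell by 3.07 (adjusted p = 3.5e-05). icl-1 (chromosome V, 724332 to 728004), which encodes both glyoxylate cycle enzymes, stood at 367.9, 277.7 and 280.9 CPM in the controls and at 196.1, 82.41 and 72.02 CPM under bcat-1 RNAi. It had the same course, with -1.54 over the 6 libraries (adjusted p = 0.0937) and a fall of 1.32 without that library (adjusted p = 2.78e-05).

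Of 43 tested genes of fatty acid oxidation, 4 rose (9.3%, against 1.77% of all genes) and 5 fell (11.6%, against 1.95%) in pairs 1 and 2, and with 11 libraries acs-2 alone passed. hacd-1, a hydroxyacyl-CoA dehydrogenase, was higher in every pair, from 54.25, 39.85 and 45.51 CPM to 83.32, 82.65 and 88.69 CPM (log2 0.88, adjusted p = 0.0879 by edgeR). The carnitine palmitoyltransferase family gene cpt-5 had -0.82 over the 6 libraries and -0.68 in pairs 1 and 2, and with 11 libraries neither it nor hacd-1 passed (adjusted p = 0.332 and 0.065 by edgeR). Of 30 genes of the TCA and glyoxylate list 29 were negative over the 6 libraries (median -0.20). In pairs 1 and 2, 6 fell (20%, against 1.95% of all genes), of which icl-1 passed with 11 libraries. Among the 6 were pyc-1, pck-1 and pck-2, which act beside these cycles. The list was lower in pair 3 (median -0.42) than in pairs 1 and 2 (-0.09 and -0.10), and that library's rRNA share moved with it, a part that was not tested. pyc-1, pyruvate carboxylase, stood at 362.6, 359.1 and 335.6 CPM in the controls and at 296.8, 259.2 and 155.9 CPM under bcat-1 RNAi. Of 19 glycolysis genes 3 fell in pairs 1 and 2 (15.8%, against 1.95% of all genes) and 0 with 11 libraries. Of the 3, fbp-1, fructose-bisphosphatase, was lower in pair 3 too (136.1, 136.9 and 140.7 CPM against 114.4, 113.6 and 112.1).

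Lipid genes that rose in pairs 1 and 2 were lipases (4 of 22 tested, 18.2%, against 1.77% of all genes) and fatty acid synthesis enzymes (5 of 23, 21.7%). Ceramide and glycosphingolipid hydrolases rose too (3 of 25, 12%). In fatty acid synthesis 1 gene fell (4.35%, against 1.95% of all genes). In pair 3, 3 of the 4 lipases and 3 of the 5 synthesis genes were higher, against 94.9% of all genes called higher. Over the 6 libraries the lipase list had a median of -0.07, with 12 of 21 negative. Of the genes named here asah-1, lipl-1 and lipl-5 passed with 11 libraries as well, and gba-4, asah-2, elo-2, fat-2, fat-3 and fat-7 did not. asah-1, an acid ceramidase of the lysosome, stood at 16.37, 14.64 and 19.47 CPM in the controls and at 32.30, 40.82 and 39.91 CPM under bcat-1 RNAi, with log2 1.16 over the 6 libraries (adjusted p = 0.068 by edgeR) and a rise of 1.22 in pairs 1 and 2. The 3 genes of the 25 of sphingolipid turnover that rose, asah-1, asah-2 (0.44) and the glucosylceramidase family gene gba-4 (0.53), were higher in pair 3 as well. lipl-5, of the lysosomal lipase family, had 0.41 (adjusted p = 0.000164), and lipl-1 had 1.94 from a mean of 0.8874 CPM. The fatty acid desaturase genes fat-2 (0.33) and fat-3 (0.25) and the elongase gene elo-2 (0.45) rose in pairs 1 and 2, and the delta-9 desaturase gene fat-7 fell (-0.32). fat-3 turned to -0.31 in pair 3. elo-2 reached 170.6 CPM there, against 105.5 and 117.8 CPM in the bcat-1 libraries of pairs 1 and 2.

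Methionine and transsulfuration genes split. cth-1, a cystathionine gamma-lyase, stood at 35.86, 44.02 and 33.41 CPM in the controls and at 53.77, 63.84 and 82.41 CPM under bcat-1 RNAi (log2 0.80 over the 6 libraries, adjusted p = 0.241 by edgeR; 0.56 in pairs 1 and 2, adjusted p = 5.38e-05). The phosphoethanolamine methyltransferase gene pmt-1 rose by 0.51 in pairs 1 and 2, the methionine synthase gene metr-1 by 0.34 and the methylenetetrahydrofolate reductase gene mthf-1 by 0.24. In all, 4 of 21 rose (19%, against 1.77% of all genes) and 2 fell (9.52%, against 1.95%). With 11 libraries pmt-1 passed, while cth-1, metr-1 and mthf-1 did not (adjusted p = 0.216, 0.316 and 0.32 by edgeR). With 11 libraries daao-1 alone passed among 26 other amino acid enzymes. In pairs 1 and 2, 5 of them fell (19.2%, against 1.95% of all genes) and 1 rose (3.85%, against 1.77%). kynu-1 (kynureninase) and tdo-2 (tryptophan dioxygenase), both of tryptophan breakdown, had -0.48 and -0.57 there and -0.42 and -0.53 in pair 3, with adjusted p of 0.281 and 0.284 by edgeR with 11 libraries.

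Of 7 tested heme-responsive hrg genes 3 rose and 1 fell in pairs 1 and 2 (42.9% and 14.3%, against 1.77% and 1.95% of all genes), and with 11 libraries hrg-10, the 1 that fell, was the 1 that passed. hrg-4, a heme importer of the gut, stood at 2.77, 2.79 and 3.39 CPM in the controls and at 5.4, 6.26 and 11.45 CPM under bcat-1 RNAi (log2 1.29 over the 6 libraries, adjusted p = 0.128 by edgeR). hrg-1, a heme transporter of the lysosome, had 0.97 and hrg-7, a secreted aspartic protease family member, 1.03 over the 6 libraries, with no overlap between the groups. hrg-10 had -0.74 in pairs 1 and 2 and -0.10 in pair 3. With 11 libraries hrg-4, hrg-1 and hrg-7 had adjusted p of 0.155, 0.133 and 0.166 by edgeR.

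Of 33 lysozyme and saposin-like genes 8 rose (24.2%, against 1.77% of all genes) and 2 fell (6.06%, against 1.95%) in pairs 1 and 2. With 11 libraries 3 rose (9.09%, against 0.241% of all genes). All 8 were higher in pair 3, as were 94.9% of all genes called higher. lys-7, a lysozyme, stood at 294.9, 218.5 and 169.8 CPM in the controls and at 511.6, 504.0 and 335.9 CPM under bcat-1 RNAi (log2 0.99, SE 0.11, adjusted p = 0.068 by edgeR). ilys-5, an invertebrate lysozyme, stood at 554.8, 579.1 and 590.9 CPM in the controls and at 852.1, 1055.9 and 1442.7 CPM under bcat-1 RNAi, highest in the library with the most rRNA. Without that library lys-7 rose by 1.00 and ilys-5 by 0.74. The dod, dct and pud genes are named for their dependence on insulin signalling or dauer. Of 21, 6 rose (28.6%, against 1.77% of all genes) and 1 fell (4.76%, against 1.95%) in pairs 1 and 2. With 11 libraries 3 rose (14.3%, against 0.241%). pud-3 rose by 0.94 and pud-4 by 1.17 in pairs 1 and 2 but had -0.39 and -0.11 in pair 3, whereas dod-3 was higher in all pairs (1.54 in pairs 1 and 2, 1.86 in pair 3).

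Most genes of the detoxification families were not called. Of 62 cytochrome P450 genes 4 rose (6.45%, against 1.77% of all genes) and 2 fell (3.23%, close to the 1.95% of all genes) in pairs 1 and 2, and cyp-14A5 and cyp-34A8 passed with 11 libraries. cyp-14A5 (1.1) and cyp-13A5 (0.69) were among the rises, and cyp-34A8 (-1.15) and cyp-35A5 (-1.2) were the falls. Of 59 glucuronosyltransferase genes, which conjugate small molecules, 5 fell (8.47%, against 1.95% of all genes) and 0 rose. With 11 libraries ugt-53 alone passed. ugt-53 stood at 6.58, 7.85 and 7.45 CPM in the controls and at 2.99, 2.13 and 2.17 CPM under bcat-1 RNAi. The family's median was 0.01 over the 6 libraries and turned to -0.03 with RLE factors. Histone genes had 21 of 23 positive over the 6 libraries (median 0.33). In pairs 1 and 2, 5 of 24 rose (20.8%, against 1.77% of all genes), and with 11 libraries 0 did. The list's median was 0.04, 0.22 and 0.58 in pairs 1, 2 and 3. Histone copies are near identical, so reads may be split between them, and most of their transcripts lack a poly(A) tail. The list's level moved with the rRNA share of the bcat-1 library of pair 3 (summed 1151 CPM, against 757.9 to 802 CPM in the other 5), a part that was not tested.

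**Figure D4:**
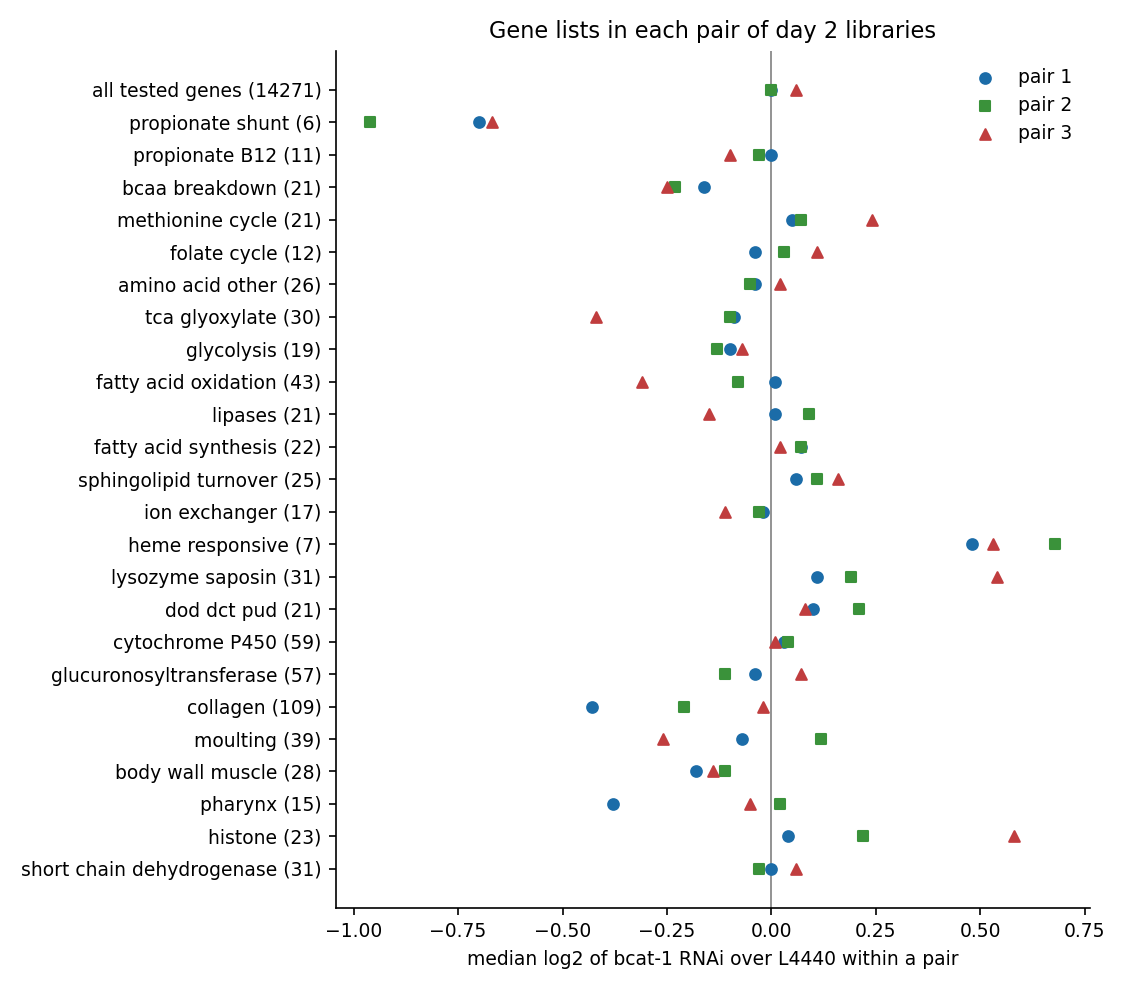
Median log2 of bcat-1 RNAi over L4440 of each gene list within each pair, with 0.5 CPM added; each symbol is 1 pair, and the number of tested genes is in brackets. The propionate shunt lies at -0.70, -0.96 and -0.67, collagens run from -0.43 in pair 1 to -0.02 in pair 3, and histones from 0.04 to 0.58.

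The same rule for naming genes, applied to pairs 1 and 2, added several that the 6 libraries did not call. The rule here took genes of at least 2 CPM with 1 sign in pairs 1 and 2, and the sign in pair 3 was free. The rises after nhx-6 were F46C5.1 (2.29), dod-3 (1.54), F45D3.4 (1.53) and T07G12.5 (1.52). F01D5.5 had 1.37, fmo-2, a flavin-containing monooxygenase, 1.36, F55G11.4 1.34 and B0024.4 1.27. In pair 3 F46C5.1 had 0.27, far below its value in pairs 1 and 2, while B0024.4 had 2.11. With 11 libraries dod-3, F01D5.5, F55G11.4 and B0024.4 passed, while F46C5.1, F45D3.4, T07G12.5 and fmo-2 did not (adjusted p = 0.094, 0.453, 0.453 and 0.439 by edgeR). Falls not yet named, all past the test with 11 libraries too, were F54E4.2 (-2.69) and C09B8.4 (-2.41), with -3.13 and -1.67 in pair 3. Y43C5A.7 (-1.74) and nspe-1 (-1.62) were weaker there, at -0.07 and -0.49.

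Day 1 is the comparison most like this one, and the effects of both days share no library. With all 12 libraries and 6 assumed pairs, 3 of 14708 genes (0.0204%) passed at day 1, all lower: acdh-2 (log2 -2.22, SE 0.18, adjusted p = 0.0143 by edgeR), catp-3 (-1.1, adjusted p = 0.0172) and dhs-25 (-1.05, adjusted p = 0.0172). All 3 are among the 16 genes of day 2, where in the same fit they had -3.15, -1.19 and -1.29. Of the 16 genes 15 had the same sign at day 1 as over the 6 libraries, the exception being catp-2 (-0.52). Of all genes tested, 53.6% had at day 1 the sign that they had in pairs 1 and 2. Of the 540 genes called in pairs 1 and 2, 305 had the same sign at day 1 (56.5%), and of those called lower 136 of 283 (48.1%).

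The difference between the effects of the days was itself tested, and 0 of 14708 genes passed, with 811 at an unadjusted p under 0.05. The 5 genes nearest to the threshold, picked with their values known, were F18E3.12 (day 2 minus day 1 -2.88, SE 0.31, adjusted p = 0.136 by edgeR), F18E3.13 (-1.64), folt-2 (-1.69, SE 0.21), WBGene00009104, which has no symbol in the annotation (-2.42, SE 0.32), and F18E3.11 (-1.78), the last 4 with adjusted p = 0.17. hphd-1 had -0.27 at day 1 and a difference of -1.02 (SE 0.14, adjusted p = 0.186). Of the 43 collagens that fell at day 2 in pairs 1 and 2, 5 were lower at day 1 (11.6%, median 0.22), against 52.5% of all lower genes. In the test of the difference DESeq2 called 35 genes, and edgeR called 23 without the bcat-1 library of pair 3 and 6 without its L4440 partner.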

How the data were processed

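Whole-worm RNA was sequenced from 12 libraries, of which 6 of day 2 are compared here. Per the submitters' processing notes the authors used bcl2fastq 1.8.4, STAR 2.4.1d and featureCounts 1.4.6-p4 on WBcel235. The deposited table gives unnormalized read counts, as whole numbers, of 46748 genes. The annotation release and strand setting are not given in the sources used here. The deposited RPKM table was not used. Symbols and positions come from Ensembl 115, and 43693 genes had a symbol.

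After 22 rRNA genes were left out, genes passing filterByExpr were scaled with TMM factors and fitted with edgeR 4.0.16 in R 4.3.3 (quasi-likelihood test, two-sided, Benjamini-Hochberg over all tested genes, threshold 0.05). The fit of the 6 libraries had a term for pair and 2 residual degrees of freedom. The pairing comes from column order and is assumed. Deviations from the group means correlated at 0.76, 0.75 and 0.27 within pairs 1, 2 and 3 and at -0.69 to 0.08 across them. SE is that of a log2 fold change, and SD is over 3 libraries. Differences within a pair use log2(CPM + 0.5). The test was checked on simulated data.

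Named genes were bcat-1, the shunt, the 12 largest called changes in each direction (mean of 2 CPM or more, 1 sign in all pairs), and up to 4 called members per list. The rule was applied again without library 12, with the sign taken over pairs 1 and 2. catp-2, F18E3.12 and F18E3.11, and some list members named for how they behave across pairs, were chosen after their values were seen. Members and lists (52 lists, 2426 genes, 1813 tested) were chosen with earlier results of these data known. Alternatives covered the block, the libraries in the fit, rRNA genes, scaling, tools (DESeq2 1.42.0, limma 3.58.1) and filters.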

Additional observations from a re-analysis of the deposited data

Results flagged for a closer look

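Among the genes named by the rule, 5 had opposite signs by day: each had 1 sign in all 3 pairs of day 2 and the other sign in all 3 pairs of day 1. The share of all genes with this pattern was not counted, so the number is not read as a result. The difference was tested with edgeR over all 12 libraries and passed for none of them. fat-7 had a difference (day 2 minus day 1) of -0.71 (adjusted p = 0.429), col-80 of -1.16 (adjusted p = 0.661), mup-2 of -0.48 (adjusted p = 0.61), unc-87 of -0.25 (adjusted p = 0.818) and phat-5 of -1.07 (adjusted p = 0.766). unc-87 is a muscle filament gene, and phat-5 is a pharynx gland gene whose level varied from 0.65 to 15.12 CPM between day 2 libraries. In pair 2 of day 2 phat-5 barely differed (log2 -0.02).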

How the results depend on the processing

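Over the 6 libraries 16 genes passed. edgeR called 0 with no replicate block (601 genes at an unadjusted p under 0.05), with rRNA genes kept (1213), with library size only (1319) and with the stricter filter of 1 CPM in 3 libraries and 50 counts (996), and limma-voom called 0 (1260). It called 28 with RLE factors, 204 with no filter, 69 with all 12 libraries and the block, and 59 with all 12 and no block, and DESeq2 called 174. With 1 library left out the count ran from 158 to 554. All 16 were called in each fit that called any, except 15 of 16 with all 12 libraries and no block. The causes were not tested. The log2 value of bcat-1 ran from -3.24 to -0.79 with 1 library left out, passed only without either library of pair 3, and did not pass under any other setting; it was -0.11 with no replicate block and -0.21 with all 12 libraries and no block. Without the library labelled bcat-1 in pair 3 the 543 calls became 1 with no replicate block, 96 with the other 11 libraries and 203 with DESeq2, alternatives chosen after the data were seen, as were RLE factors (648) and limma-voom (628). The difference between days had 0 calls, 35 with DESeq2, and 0 to 23 with 1 day 2 library left out. The 20 genes named from the 6 libraries kept their direction under each alternative that gave a value. For the 78 named from pairs 1 and 2, the fit of 11 libraries was the 1 alternative run, and 50 lost the call there. That fit takes the day 2 effect from pairs 1 and 2 again. The directions, which all held, are thus no separate evidence. The median log2 value of all genes lay between -0.024 and 0.048.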

Other observations

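Several lists had another median in pair 3 than in pairs 1 and 2. Of 80 cytosolic ribosomal protein genes 79 were higher on bcat-1 RNAi in pair 3 (median log2 0.48), against medians of -0.05 and -0.09 in pairs 1 and 2. Of 90 neuropeptide genes 86 were higher in pair 3 (median 0.55, against -0.09 and 0.10), and so were 30 of 36 glutathione transferase genes (0.37, against -0.05 and 0.03) and 18 of 19 pals genes (0.47, against -0.04 and 0.03). Nutrient signalling genes of the TOR and AMPK pathways were lower there in 19 of 22 (median -0.26, against 0.02 and -0.02), and vacuolar ATPase genes in 14 of 21 (-0.37, against -0.13 and -0.09). None of these lists had a member past the edgeR test over the 6 libraries, where 1221 genes had an unadjusted p under 0.05. The bcat-1 library of pair 3 had 41.46% of its counts in rRNA genes, and the part of this share in these values was not tested.

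Germline, oocyte, embryo and sperm lists had 0 called members in pairs 1 and 2, with medians of -0.03, -0.06, 0.09 and -0.04. Of 46 respiratory chain genes, 33 proteasome genes and 69 mitochondrial ribosome genes 0 were called there either, while all 33 proteasome genes had negative values in that fit (median -0.07) and 24 of the 33 in pair 3.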
